A study of Mus musculus with 15 samples.

Results

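A set of 9 named long noncoding RNAs was followed in cortical organoids: Malat1, Neat1, Miat, Rmst, Sox2ot, Snhg11, Gas5, 2600014E21Rik and 1700007J10Rik. They were given as a list of gene names, and all 9 were found among the 44260 genes of the table. The organoids were grown to day 12 from mouse lines labelled SpretB6, which carry 1 genome copy of the laboratory strain C57Bl/6J (B6) and 1 of the wild-derived species Mus spretus (Spret). There were 3 libraries, titled C1, C2 and C3 and called libraries 1, 2 and 3 here, and no treatment separates them. Each library gave a B6 value and a Spret value for every gene, so both alleles were compared within the same RNA. The values are allele-specific read numbers that the authors normalised and rounded, so reads without a strain difference do not count. The labels do not say whether the libraries come from separate cultures, so the spread behind each p-value may be a technical one. The other 12 samples of the series, stem cells of 4 crosses, were not analysed here.

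Long noncoding RNAs are transcripts without a protein product. Some build or mark bodies inside the nucleus: Malat1 gathers in nuclear speckles, which store splicing factors, Neat1 is the scaffold of paraspeckles, and Miat, also known as Gomafu, is a nuclear RNA of neurons. Rmst and Sox2ot are tied to the neural transcription factor SOX2, the first as a binding partner and the second as the transcript whose gene surrounds Sox2. Gas5 and Snhg11 are host genes of small nucleolar RNAs, short guides of RNA modification that are cut out of the host transcript. The last pair, 2600014E21Rik and 1700007J10Rik, is known by clone names only.

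The sequences most useful for reading the results are those at the loci where the alleles differed most. The RefSeq table (GRCm38.p6) gave start regions, 300 bases around an annotated start, for 6 of the 9 genes, and those of the 4 genes with allelic differences above 2-fold are shown. Capitals mark matches, on either strand, to the TATA box (TATAAA), the CCAAT box, the GC box (GGGCGG) and the E-box (CACGTG). All sequences are of the B6 reference, so they do not show how Spret differs. They lie at chr2:75137405-75137704 (plus strand, the first of 3 listed starts), chr11:59740105-59740404 (minus), chr2:158375463-158375762 (plus) and chr1:161034351-161034650 (plus, the first of 2 listed starts).
2600014E21Rik: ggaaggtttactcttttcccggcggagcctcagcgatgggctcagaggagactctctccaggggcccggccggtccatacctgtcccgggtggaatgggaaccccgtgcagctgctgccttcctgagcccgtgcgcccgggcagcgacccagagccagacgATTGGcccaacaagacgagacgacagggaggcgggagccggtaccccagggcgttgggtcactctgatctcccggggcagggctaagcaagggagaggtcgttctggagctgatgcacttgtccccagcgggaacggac
1700007J10Rik: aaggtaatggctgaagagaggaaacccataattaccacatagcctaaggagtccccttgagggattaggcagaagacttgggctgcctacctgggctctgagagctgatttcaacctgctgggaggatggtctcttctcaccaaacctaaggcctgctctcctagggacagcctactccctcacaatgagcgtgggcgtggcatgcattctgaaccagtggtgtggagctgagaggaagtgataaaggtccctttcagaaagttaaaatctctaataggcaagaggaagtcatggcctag
Snhg11: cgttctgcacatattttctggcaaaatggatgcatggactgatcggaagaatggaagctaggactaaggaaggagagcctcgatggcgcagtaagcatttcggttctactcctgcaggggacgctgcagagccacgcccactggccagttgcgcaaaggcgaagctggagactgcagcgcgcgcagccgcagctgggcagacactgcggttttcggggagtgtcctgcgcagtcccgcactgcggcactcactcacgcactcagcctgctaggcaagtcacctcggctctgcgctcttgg
Gas5: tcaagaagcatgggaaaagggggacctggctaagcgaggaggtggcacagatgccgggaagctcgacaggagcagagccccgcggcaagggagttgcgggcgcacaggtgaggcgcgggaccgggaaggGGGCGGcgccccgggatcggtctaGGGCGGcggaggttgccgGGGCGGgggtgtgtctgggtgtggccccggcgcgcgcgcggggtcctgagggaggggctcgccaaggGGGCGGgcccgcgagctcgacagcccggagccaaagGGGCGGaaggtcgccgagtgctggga
The Gas5 region held the GC box 5 times and that of 2600014E21Rik held the CCAAT box once, while 1700007J10Rik and Snhg11 held none of the 4 motifs. Among 32851 start regions of the same length, 13.6% held the TATA box, 37.4% the CCAAT box, 35.7% the GC box and 7.15% the E-box. The G and C content was 66.0%, 50.7%, 60.0% and 73.7% in the order shown, against a median of 52.7% over all start regions. The other listed starts differed: those of 2600014E21Rik had 38.7% and 41.7% and none of the 4 motifs, and that of Gas5 had 62.0% and 3 GC boxes. The region shown for 2600014E21Rik lies wholly before the span that GENCODE gives this gene.

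Inside Miat the reference carries repeats of TACTAAC, a heptamer that matches the branch point sequence of introns and for which this RNA is known. The longest annotated Miat transcript, of 9163 bases, held TACTAAC 6 times on its own strand. Neat1 held it once in 20771 bases and the other 7 RNAs not at all. Of 9062 long noncoding transcripts of at least 1000 bases, 6.57% held it, and 1 transcript of 1 gene other than Miat held as many copies. Shown with the heptamer in capitals are bases 4893 to 5072 of that transcript, a 180-base stretch with 3 copies, and the annotated fragment Gm27882 (chr5:112216740-112216813, minus strand), which has a value of its own in the table.
Miat: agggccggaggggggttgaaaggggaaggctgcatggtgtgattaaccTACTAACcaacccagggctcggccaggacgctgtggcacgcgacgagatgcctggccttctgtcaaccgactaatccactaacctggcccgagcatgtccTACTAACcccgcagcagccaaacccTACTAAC
Gm27882: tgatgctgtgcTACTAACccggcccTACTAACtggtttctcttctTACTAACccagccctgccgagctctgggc

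The organoids had the RNA of neurons and progenitors, with cortical markers among it. Summed over both alleles, the 6 cortical neuron markers ranged from 22875 to 24003 across libraries and the 7 progenitor markers from 2999 to 3939. Most of the neuron sum came from Map2, Dcx and Tubb3, with means of 8885, 5906 and 3189, which are not specific to the cortex. Neurod6, Bcl11b and Tbr1 had means of 4259, 792 and 329. The tissue label names epiblast stem cells, but the 8 pluripotency and epiblast markers summed to 32 to 124, of which Pou5f1 read 57, 63 and 13 in libraries 1, 2 and 3 and each of the other 7 at most 16. Lists of 3 or 4 markers each summed to 346 to 2719 for choroid plexus, 214 to 263 for astrocytes, 131 to 190 for oligodendrocytes, 65 to 137 for microglia, 24 to 71 for endothelium and 267 to 323 for mesenchyme, and the 5 ventral markers to 208 to 278. Column sums ranged from 2413876 to 3027078 for B6 and from 2088788 to 2639912 for Spret. X-linked values came from B6, with 0.0941% ± 0.00595 from Spret (SD, n = 3), and Y-linked values from Spret, at 99.5% ± 0.280. Autosomal values were 47.7% ± 0.137 from Spret (SD, n = 3). All 9 RNAs are autosomal. Since every library read X and Y alike, effects of strain and of parental origin on these RNAs cannot be told apart. Whether the assignment of reads to alleles favoured B6, the strain of the reference, was not tested, so ratios may not reflect RNA levels alone. Reads of a gene in bulk RNA also do not separate fewer cells of a type from less RNA per cell.

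Malat1 was the most abundant RNA of the whole table, and the 9 RNAs spanned a wide range of levels. Its summed value was 69733 in library 1, 53078 in library 2 and 84086 in library 3, which is 1.35% ± 0.155 of all values (SD, n = 3) and 2.97 times the mean of the next gene, Map1b. Malat1 made up 91.6% to 91.9% of the values of the 9 RNAs together. Miat summed to 2507, 2216 and 3002 and Gas5 to 1783, 1326 and 2056 in libraries 1, 2 and 3. Among genes annotated as long noncoding, with the 9 included, Malat1, Miat, Gas5, Snhg11 and Rmst ranked 1, 7, 12, 40 and 64. Neat1, 1700007J10Rik, 2600014E21Rik and Sox2ot ranked 120, 130, 240 and 292, with mean sums of 275, 255, 150.3 and 129.7, so the word abundant fits the first 3 RNAs better than these 4.

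Per kilobase of annotated exon the order was Malat1 at 9876 ± 2222 normalised values (SD, n = 3), Gas5 at 458 ± 98.1, Miat at 277 ± 42.8, 1700007J10Rik at 197 ± 17.9, Snhg11 at 78.3 ± 65.4, Rmst at 64.1 ± 19.0, 2600014E21Rik at 18.9 ± 1.34, Neat1 at 13.2 ± 2.59 and Sox2ot at 11.2 ± 2.56. Libraries of neighbouring RNAs in this order did not overlap, except for Snhg11 with Rmst and Neat1 with Sox2ot. These levels depend on how many bases differ between the strains in each gene, which was not analysed here. They also depend on the length used, all annotated exon bases of a gene together, which was 11594 for Sox2ot and 7423 for Rmst. The longest annotated transcripts of Sox2ot and Rmst had 3486 and 2891 bases, so the order of the lower RNAs depends on the length chosen. Malat1 and Neat1 lie next to each other on chromosome 19, yet the summed level per kilobase of Malat1 was 746 times that of Neat1.

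**Figure D1:**
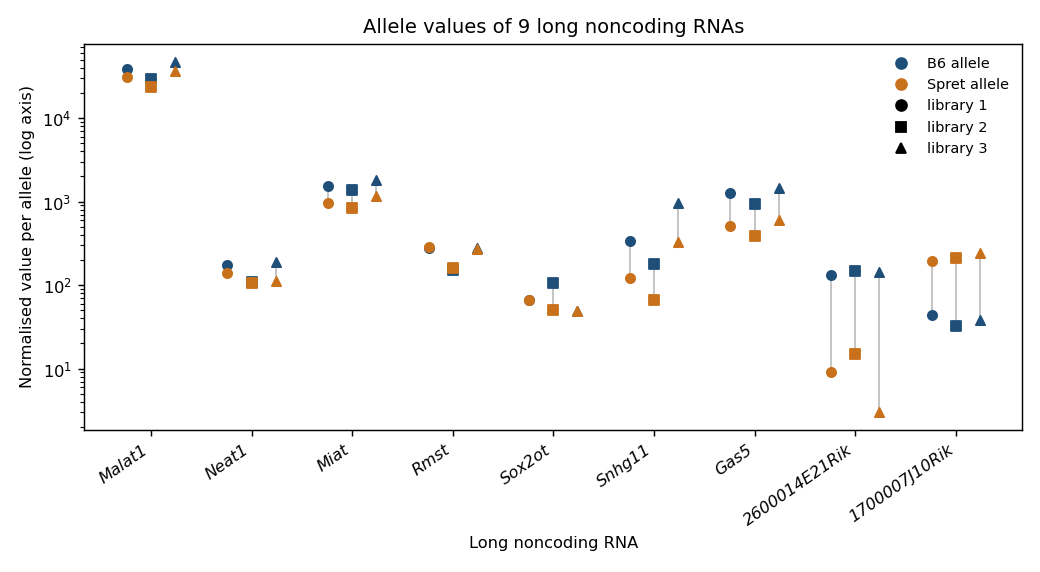
Normalised value of each allele (vertical log axis) for the 9 RNAs (horizontal axis), with B6 in blue, Spret in orange, a symbol per library and a grey line joining the alleles of a library. Malat1 stands above all others, the alleles of Rmst nearly coincide, and 2600014E21Rik and 1700007J10Rik are split in opposite directions.

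Snhg11 was the RNA whose level differed most between libraries. It summed to 457, 246 and 1299 in libraries 1, 2 and 3, a 5.28-fold span, or 4.20-fold as a share of each library's total. Only 1.27% of tested genes had a larger coefficient of variation of that share. Library 3, where Snhg11 was high, had pluripotency markers at 32 against 89 and 124, choroid plexus markers at 346 against 2719 and 594, and cortical neuron markers at 24003 against 23205 and 22875 in libraries 1 and 2. Within the neuron list, Map2, Dcx, Tbr1 and Bcl11b were highest in library 3, while Neurod6 (3177 against 4730 and 4871) and Tubb3 (3106 against 3179 and 3283) were lowest there. Their part in the level of Snhg11 was not tested. Sox2ot varied 2.02-fold and Rmst 1.62-fold as shares, while Miat varied 1.08-fold and 1700007J10Rik 1.15-fold. With 1 group of 3 libraries, differences in level between libraries have no test.

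**Figure D2:**
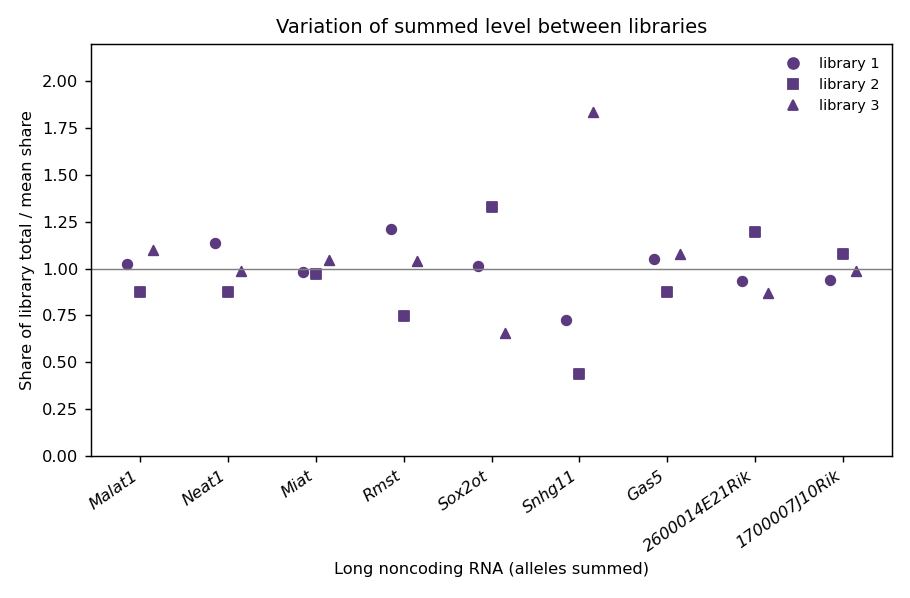
Share of the library total held by each RNA, both alleles summed, divided by its mean over the 3 libraries (vertical axis from 0), with a symbol per library. The Snhg11 points spread widest, with library 3 on top, and the Miat points lie closest together.

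The next question was whether the alleles differ, which was tested with limma on log2(value + 1) with library and allele as terms over 15985 genes, p-values being adjusted by the Benjamini-Hochberg method. A gene is called here at an adjusted p below 0.05. Of the 9 RNAs, 5 were called higher from B6 (Malat1, Miat, Gas5, Snhg11 and 2600014E21Rik), 1 was called higher from Spret (1700007J10Rik), and Neat1, Rmst and Sox2ot were not called. Among all tested genes 30.4% were called, 22.8% toward B6 and 7.56% toward Spret. For autosomal genes these shares were 28.4%, 20.7% and 7.78%, for autosomal long noncoding genes 21.8%, 17% and 4.81%, and for autosomal genes with a mean sum of at least 100, a floor that all 9 RNAs exceed, 35.7%, 25.6% and 10.1%. The 9 RNAs and the lists below were chosen with earlier results of these data known. Their counts are therefore not those of unselected genes, and no excess over these shares can be read from them. The median log2 ratio (Spret to B6) of the 9 RNAs was -0.38, and that of autosomal genes was -0.13. The part of read assignment in the autosomal median was not tested. Centring each library on that median moved the ratio of Rmst to 0.15 and left the calls of the 9 RNAs as they were, while over all tested genes it gave 2059 calls toward Spret and 2537 toward B6 in place of 1209 and 3643.

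**Figure D3:**
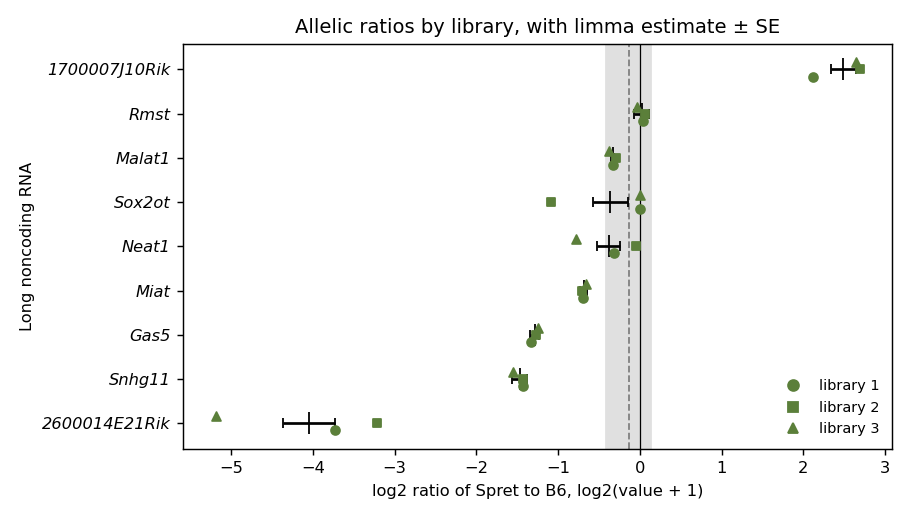
Log2 ratio of Spret to B6 (horizontal axis) for each RNA, with symbols for the 3 libraries and a bar for the limma estimate ± SE. The grey band holds the middle quartiles of autosomal genes, -0.42 to 0.13, and the dashed line their median of -0.13; 2600014E21Rik, Snhg11, Gas5, Miat and 1700007J10Rik lie outside the band in every library.

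Of the RNAs of nuclear bodies, Malat1 and Miat were higher from B6. Malat1 read 38824, 29208 and 47552 from B6 and 30909, 23870 and 36534 from Spret in libraries 1, 2 and 3. B6 was higher within each library, although the ranges of the alleles overlapped between libraries. The Spret share was 44.2% ± 0.764 (SD, n = 3) and the log2 ratio -0.33 ± 0.02 (SE), a 1.26-fold difference (limma adjusted p = 1.42e-08). The call needs the pairing of alleles within a library and the shared trend of variance: it ended without the replicate block (adjusted p = 0.505) and without limma's trend (adjusted p = 0.113), and after centring the ratio was -0.21. Of autosomal genes 31.0% had a lower ratio.

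Miat (chromosome 5, 112213228 to 112229395, minus strand) read 1550, 1376 and 1838 from B6 and 957, 840 and 1164 from Spret, with no overlap between alleles. Its Spret share hardly varied, at 38.3% ± 0.445 (SD, n = 3), and the log2 ratio was -0.69 ± 0.05 (SE), a 1.61-fold difference (limma adjusted p = 2.4e-08). Neat1 (chromosome 19, 5824708 to 5845478, minus strand) read 172, 108 and 191 from B6 and 138, 105 and 111 from Spret. Its alleles were nearly equal in library 2 and furthest apart in library 3, and the log2 ratio of -0.38 ± 0.14 (SE) missed the threshold (limma adjusted p = 0.0546). Without library 2 the ratio was -0.55 and Neat1 was called (adjusted p = 0.0149), and without library 3 it was -0.18 (adjusted p = 0.479).

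The RNAs tied to SOX2 had no called difference. Rmst (chromosome 10, 92071037 to 92165170, minus strand) read 279, 153 and 277 from B6 and 288, 160 and 270 from Spret, a share of 50.4% ± 0.936 (SD, n = 3), and its log2 ratio was 0.02 ± 0.09 (SE, limma adjusted p = 0.868). Both alleles were lowest in library 2. Sox2ot (chromosome 3, 34104270 to 34682619, plus strand) read 67, 107 and 49 from B6 and 67, 50 and 49 from Spret. The alleles were equal in libraries 1 and 3 and differed in library 2 only, so the log2 ratio of -0.36 ± 0.22 (SE, limma adjusted p = 0.23) rests on that library and was 0.00 without it.

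Both host genes of small nucleolar RNAs were more than 2-fold higher from B6. Gas5 read 1277, 937 and 1448 from B6 and 506, 389 and 608 from Spret, and Snhg11 (chromosome 2, 158375638 to 158386145, plus strand) read 334, 180 and 968 from B6 and 123, 66 and 331 from Spret. The Spret share was 29.1% ± 0.632 for Gas5 and 26.4% ± 0.804 for Snhg11 (SD, n = 3). Thus the allelic share of Snhg11 stayed within 25.5% to 26.9% while its level changed 5.28-fold. The log2 ratio was -1.28 ± 0.06 (SE, 2.43-fold, limma adjusted p = 1.08e-10) for Gas5 and -1.47 ± 0.09 (SE, 2.77-fold, limma adjusted p = 5.7e-09) for Snhg11. Without the replicate block the call of Snhg11 ended (adjusted p = 0.173) and that of Gas5 did not (adjusted p = 0.00194). Of autosomal genes, 3.09% had a lower ratio than Gas5 and 2.21% a lower ratio than Snhg11.

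The largest differences were those of the RNAs known by clone names. 2600014E21Rik on chromosome 2 (75138843 to 75317820, mm10, plus strand) read 132, 147 and 145 from B6 and 9, 15 and 3 from Spret. Its B6 value was steady and its Spret value low in every library, so the log2 ratio of -4.04 ± 0.32 (SE, 16.5-fold, limma adjusted p = 1.15e-07) rests on few Spret reads and ranged from -5.19 to -3.21 between libraries. 1700007J10Rik on chromosome 11 (59725917 to 59740154, minus strand) was the only RNA of the 9 called toward Spret, with 44, 32 and 38 from B6 and 195, 213 and 244 from Spret. Its Spret share was 85.0% ± 2.98 (SD, n = 3) and its log2 ratio 2.49 ± 0.16 (SE, 5.62-fold, limma adjusted p = 7.41e-09). Of autosomal genes, 0.129% had a lower ratio than the first and 99.8% a lower ratio than the second.

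Genes that overlap or neighbour the RNAs were then set beside them. No source used here tells whether counting used strand, so reads of genes on opposite strands of the same bases cannot be told apart. Malat1 (chromosome 19, 5795690 to 5802672, minus strand) contains Gm37376, a gene model of type TEC on the opposite strand whose 453 bases all lie in Malat1. Gm37376 read 8282, 6072 and 10296 from B6 and 6408, 4889 and 7432 from Spret, 20.3% to 21.7% of the Malat1 value in all 6 columns, or -0.38 ± 0.03 as a log2 ratio (SE, limma adjusted p = 3.91e-07; 0.376 without the block and 0.0922 without the trend). By the measure of likeness over the 6 allele columns it was also the gene most like Malat1.

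Short annotated fragments inside Malat1 and Miat had ratios both near to and far from that of the whole gene. Gm27694, an 86-base fragment of Malat1 (chr19:5799000-5799085, minus strand), read 692, 512 and 1002 from B6 and 402, 236 and 400 from Spret, or -1.07 ± 0.09 as a log2 ratio (SE, limma adjusted p = 1.89e-07). Its ratios of -1.32 to -0.78 did not overlap the -0.38 to -0.29 of Malat1. Gm27882, the Miat fragment with 3 copies of TACTAAC shown above, leaned the other way from its host, with 10, 13 and 19 from B6 and 36, 23 and 36 from Spret. Its log2 ratio was 1.14 ± 0.31 (SE, limma adjusted p = 0.0111), a call that ended without library 1 (adjusted p = 0.131), without the filter on low values (0.151), without the block (0.0635) and without the trend (0.0531). Gm26953, on the opposite strand and sharing 2260 exon bases with Miat, was called toward B6 at -0.35 ± 0.08 (SE, limma adjusted p = 0.00298). That call ended without library 1 (0.0774), without the filter (0.142), without the block (0.256) and without the trend (0.134). The other tested Miat fragments, Gm27357 (-0.14), Gm27627 (-0.51) and Gm27998 (0.05), were not called. The differences between a fragment and its host were not tested. Of 6 tested fragments of Rmst only Gm27366 was called, toward Spret at 0.77 ± 0.25 (SE, limma adjusted p = 0.0336), and without any 1 library it was not (adjusted p from 0.0659 to 0.186). The Malat1 fragment is shown without capitals.
Gm27694: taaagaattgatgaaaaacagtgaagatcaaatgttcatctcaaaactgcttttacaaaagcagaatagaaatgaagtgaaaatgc

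At Gas5 (chromosome 1, 161034422 to 161038539, plus strand) 8 small nucleolar RNAs annotated within the gene are in the table. Of these, 6 were abundant enough to test, and 5 were called, all higher from B6, beside 20.7% of autosomal genes called toward B6. Their bases lie in exons of Gas5, itself called toward B6, so these calls are not separate from that of the host. Snord47, too low to test, read 3, 5 and 2 from B6 and 3, 1 and 9 from Spret, and Gm25789, also untested, 10, 3 and 7 from B6 and 8, 8 and 2 from Spret. The tested guides are shown because their annotated bases also lie in exons of Gas5 transcripts, so reads of host and guide cannot be told apart here. Capitals mark every match on the RNA strand to the core of the C box (TGATGA) and of the D box (CTGA), the boxes that define this class of guides. Whether a match is one of these boxes was not tested, and Gm22489 and Snord78 held no TGATGA.
Gm26224: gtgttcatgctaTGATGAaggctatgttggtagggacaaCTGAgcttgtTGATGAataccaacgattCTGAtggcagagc
Gm22489: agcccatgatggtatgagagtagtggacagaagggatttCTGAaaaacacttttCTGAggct
Gm22357: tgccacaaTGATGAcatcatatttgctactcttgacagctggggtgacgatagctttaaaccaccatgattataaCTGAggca
Gm23212: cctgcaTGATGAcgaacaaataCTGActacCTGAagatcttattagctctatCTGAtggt
Snord78: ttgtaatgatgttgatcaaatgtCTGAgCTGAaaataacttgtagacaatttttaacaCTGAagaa
Snord80: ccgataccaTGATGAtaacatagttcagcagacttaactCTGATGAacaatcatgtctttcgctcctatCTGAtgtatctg
They lie in this order, at chr1:161035394-161035473, chr1:161035850-161035911, chr1:161036057-161036139, chr1:161036682-161036741, chr1:161036984-161037049 and chr1:161037601-161037681. Snord78 stood apart, with 73, 54 and 110 from B6 and 6, 3 and 12 from Spret, or -3.43 ± 0.28 as a log2 ratio (SE, limma adjusted p = 2.09e-07). Its ratios of -3.78 to -3.09 lay below those of Gas5, -1.33 to -1.25, in every library, a difference that was not tested. The other 5 had ratios between -1.12 (Snord80) and -0.33 (Gm22489, not called, limma adjusted p = 0.326, with library ratios from -0.66 to 0.12). Of the called guides, Gm23212 and Snord80 lost their calls without any 1 of the 3 libraries (adjusted p from 0.0538 to 0.146), Gm26224 without the filter (0.0731) and Gm22357 without the block (0.0556), and Snord78 kept its call under the 9 alternatives that tested it.

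Protein-coding genes at these loci were called in either direction or not at all. Zbtb37, a zinc finger gene that overlaps the span of Gas5 on the opposite strand without a shared exon base, was called toward B6 at -0.53 ± 0.10 (SE, limma adjusted p = 0.000712), a call that ended without the filter (0.142), the block (0.125) or the trend (0.0889). Serpinc1, the antithrombin gene near Gas5, had a ratio of -0.06 and was not called. Mprip, a myosin phosphatase partner, runs across 1700007J10Rik on the opposite strand and shares 165 of its exon bases. Mprip read 606, 551 and 732 from B6 and 744, 720 and 880 from Spret, which is 0.32 ± 0.06 as a log2 ratio (SE, limma adjusted p = 0.000898), in the direction of 1700007J10Rik. The difference in size was not tested, and the call of Mprip ended without the filter (0.0627), the block (0.303) or the trend (0.128). Flcn, 51254 bases from 1700007J10Rik, was called the other way at -0.46 ± 0.14 (SE, limma adjusted p = 0.0208), and lost the call without any 1 library (adjusted p from 0.0561 to 0.148), after centring (0.0832) and without the filter (0.126), the block (0.263) or the trend (0.0785). Nlrp3, on the other side of 1700007J10Rik, was not called at 0.71 (limma adjusted p = 0.198).

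Sox2, the pluripotency and neural progenitor factor that lies within the span of Sox2ot and shares no exon base with it, was higher from Spret. It read 88, 63 and 65 from B6 and 131, 77 and 121 from Spret, or 0.58 ± 0.16 as a log2 ratio (SE, limma adjusted p = 0.0116), against 0.00, -1.08 and 0.00 for Sox2ot in libraries 1, 2 and 3. The call of Sox2 ended without library 1 (adjusted p = 0.1) and without library 3 (0.144), and without the filter (0.166), the block (0.192) or the trend (0.0876). Dnajc19, a mitochondrial import gene 22949 bases from Sox2ot, was called toward B6 at -0.41 ± 0.11 (SE, limma adjusted p = 0.0101), but not after centring (0.062) or without library 1 (0.0911) or 3 (0.0517), the filter (0.0873), the block (0.311) or the trend (0.0816). Atp11b, on the other side and 1071487 bases from Sox2ot, was not called at 0.05. Frmd8, 47030 bases from Malat1 and 4224 from Neat1, had a ratio of 0.02 and was not called. Mtx2 and Hnrnpa3, the nearest coding genes 260412 and 341441 bases from 2600014E21Rik, had ratios of 0.04 and -0.08 and were not called. Gm18494, a pseudogene on the opposite strand that shares 165 exon bases with 2600014E21Rik and was too low to test, read 10, 14 and 19 from B6 and 0, 1 and 0 from Spret. Mn1 and Tpst2, the nearest tested coding genes 756195 and 47296 bases from Miat, had ratios of 0.01 and -0.09 and were not called. Tmpo and Nedd1, those nearest to Rmst at 889722 and 519576 bases, had ratios of -0.02 and 0.40 and were not called. D630003M21Rik and Ralgapb, 146416 and 23703 bases from Snhg11 (-0.74 and -0.21), were not called either. The limma adjusted p-values of these neighbours of Miat, Rmst and Snhg11 ran from 0.0876 to 0.937.

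**Figure D4:**
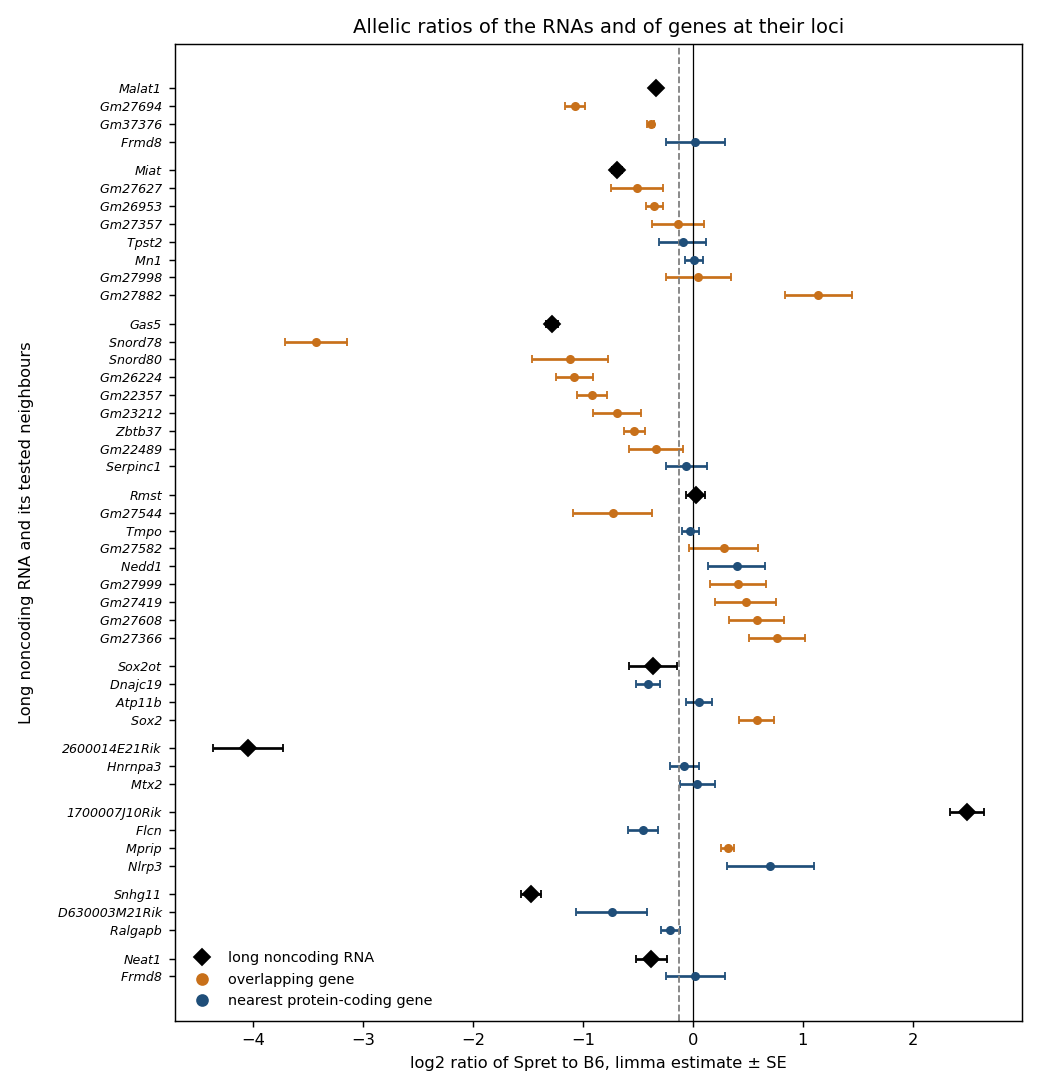
Log2 ratio of Spret to B6, limma estimate ± SE (horizontal axis), for each RNA (black diamonds) and, below it, tested genes of its locus. Overlapping genes are in orange and the nearest tested protein-coding genes, at distances up to 1071487 bases, in blue. The dashed line is the autosomal median of -0.13. Snord78 lies left of Gas5, Gm27882 lies right of 0 while Miat lies left of it, and the neighbours tested beside 2600014E21Rik lie near 0.

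Other named long noncoding RNAs, from a list of 64 names of which 57 are in the table and 42 were tested, also went both ways. Of the 38 autosomal ones, 6 were called toward Spret and 12 toward B6, with a median log2 ratio of -0.22 beside -0.13 for autosomal genes and -0.23 for the 2389 tested autosomal long noncoding genes, 21.8% of which were called. The 4 X-linked ones, Ftx, Jpx, Firre and Cdr1os, were read from B6, with Spret values of 0 to 2, as X-linked genes with a single copy are. Rmrp, the RNA of the mitochondrial RNA processing enzyme, had the highest sum, with 5718 from B6 and 4963 from Spret on average (-0.20 ± 0.03 SE), and its call ended after centring (limma adjusted p = 0.0835), without the block (0.599) and without the trend (0.255). The values of Ccdc107, which overlaps it on the opposite strand, were 97.4% to 99.8% of those of Rmrp in each column, so their reads cannot be told apart. Among autosomal RNAs toward Spret, Pvt1, a neighbour of Myc, led at 1.38 ± 0.31 (SE, limma adjusted p = 0.00389), a call that ended without library 3 (0.0855), the filter (0.171) or the trend (0.0701). It was followed by Snhg12 at 1.08 ± 0.15 (0.0925 without the filter) and Oip5os1, also called Cyrano, at 0.67 ± 0.06. Mir100hg, a microRNA host, was called toward B6 at -0.33 ± 0.05, but not without the filter (adjusted p = 0.0586), the block (0.27) or the trend (0.122). Snhg4, a nucleolar RNA host, was called toward Spret at 0.15 ± 0.05, a call lost without library 1 (adjusted p = 0.153) or 2 (0.22) and without the filter (0.192), the block (0.62) or the trend (0.374). Among autosomal RNAs called toward B6, the lowest ratios, chosen after the values were seen, were those of Pantr2, Snhg3 and Terc, the telomerase RNA. Pantr2 stood at -1.63 ± 0.36 (limma adjusted p = 0.0032, and 0.0538 without library 1). Snhg3 stood at -1.31 ± 0.34 (0.00861, and 0.0606 without library 1 or 3) and Terc at -1.27 ± 0.39 (0.025, and 0.052 without library 3). Ptprv, at -1.29, was lower than Terc but was not called (limma adjusted p = 0.0821). The calls of Pantr2, Snhg3 and Terc all ended without the filter or the block (adjusted p from 0.0598 to 0.18), and that of Terc without the trend (0.0577). Over the whole list, with the X-linked ones, 16 were called toward B6. Without library 1 there were 10 in their place, and without limma's trend 2 were called toward Spret and 9 toward B6. Each of these counts toward B6 includes Ftx, Firre and Cdr1os, which kept their calls under every alternative.

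Other genes of that list with a Snhg name did not share a direction. Of the 13 other tested Snhg genes, Snhg1, Snhg3, Snhg5, Snhg15 and Snhg17 were called toward B6, with log2 ratios from -1.31 to -0.33, Snhg4 and Snhg12 toward Spret, and 6 were not called. This count was made after the values were seen. Among all autosomal genes 28.4% were called, 20.7% toward B6 and 7.78% toward Spret, so both directions occur in the background too. The calls of Snhg3, Snhg4 and Snhg12 ended under alternatives given above. Whether those of Snhg1, Snhg5, Snhg15 and Snhg17 held under the alternatives is not given here.

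**Figure D5:**
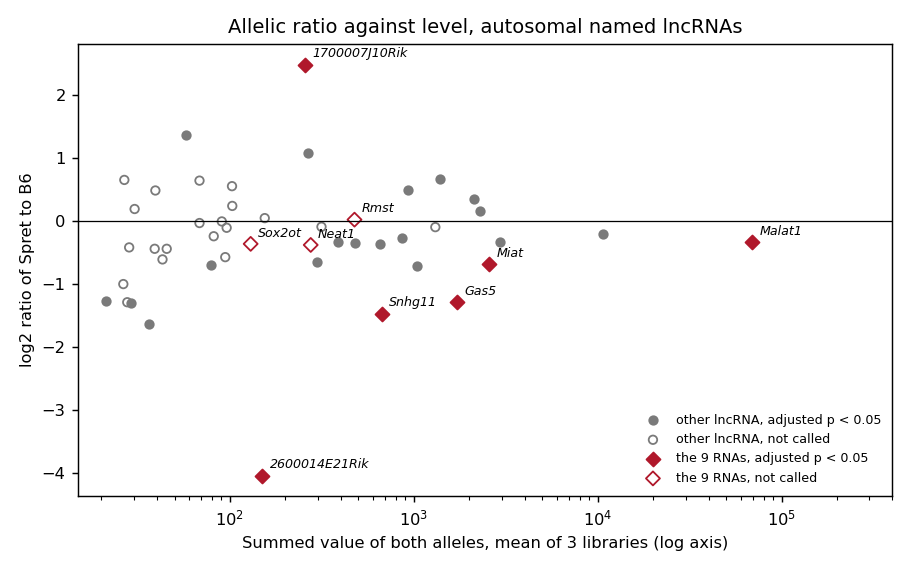
Log2 ratio of Spret to B6 (vertical axis) against the summed value of both alleles (horizontal log axis) for the 9 RNAs (red diamonds) and the 38 other autosomal named long noncoding RNAs (grey circles); filled symbols were called. Malat1 stands at the right edge close to 0, and 2600014E21Rik and 1700007J10Rik lie beyond all the grey points.

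Genes of the proteins that bind these RNAs or build their nuclear bodies were called in both directions. Of 25 autosomal ones, 2 were called toward Spret and 7 toward B6, beside 28.4% called among all autosomal genes and 35.7% among those with a mean sum of at least 100. None of the 25 differed by 2-fold, and their median log2 ratio was -0.10, beside -0.13 for autosomal genes. Called toward Spret were Pspc1 of paraspeckles, at 0.36 ± 0.13 (SE, limma adjusted p = 0.044), and Sox2. Toward B6 the splicing factors Rnps1 and Srsf3 led at -0.86 ± 0.09 and -0.74 ± 0.09, calls that ended without the filter (limma adjusted p = 0.0572 and 0.0691). Smarca4, a chromatin remodeller, was at -0.16 ± 0.05 (limma adjusted p = 0.0366), and Srrm2 of nuclear speckles was not called at -0.02. Nono, the paraspeckle protein gene on the X chromosome, read 4422 from B6 and 1.00 from Spret on average. After centring the whole list of 26 had 5 calls in each direction, with Smarca4 among those lost (adjusted p = 0.645). Without the filter, the block or the trend neither Pspc1 nor Smarca4 was called (adjusted p from 0.143 to 0.646), and Smarca4 was not without library 1 (0.287) or 3 (0.234). Pspc1 lost its call without library 1 (0.132) and without library 3 (0.334), and the list then had 0 limma calls toward Spret.

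Likeness of pattern was measured as the root mean square difference of log2 values over the 6 allele columns, each gene centred on its own mean, and it describes 3 libraries only. The nearest gene lay closest for Malat1 (Gm37376, 0.0317), Miat (Esd, 0.0409), Neat1 (Plxdc2, 0.0547), Rmst (Mtrf1l, 0.0626), Gas5 (D130040H23Rik, 0.0685) and Sox2ot (Gm43335, 0.0954). It lay further off for 1700007J10Rik (Mospd3, 0.222), Snhg11 (Gm49327, 0.224) and 2600014E21Rik (0.25), whose nearest gene was Hmgn5 of the X chromosome, read from B6 at 47, 38 and 36 and from Spret at 1, 3 and 0. All bases of Gm37376 lie in Malat1, so their reads cannot be told apart and the likeness of that pair is not a separate result.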

How the data were processed

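RNA was measured in 3 libraries of day 12 organoids after ribosomal RNA depletion, per the labels' protocols. The deposited values are treated as a score: per the file headers and name they are normalised allele-specific counts, which the authors deposited as whole numbers. The sources used here do not give the normalisation, aligner or allele assignment. The submitters' processing notes name the build mm10. Some low whole numbers were held by no gene in libraries 1 and 2, so no count model was used. The 12 stem cell samples were not analysed here. All 6 allele columns entered limma 3.58.1 (R 4.3.3) with an intensity trend, a pseudocount of 1 and a minimum mean of 10. The fit had 2 residual and 12.3 prior degrees of freedom. Fold changes are on the log2(value + 1) scale and understate those of low genes. Alleles are paired because they were read from the same RNA; across genes, their deviations from the allele means correlated at 0.2005, 0.427 and 0.540 within libraries 1, 2 and 3. The fit was tested on simulated data whose columns had no shared library effect, so that test does not cover the pairing of alleles. Positions are from GENCODE M21 (GRCm38, the assembly mm10 names), which calls Snhg11 protein-coding where RefSeq calls it long noncoding. Text names genes by rule: the 9 RNAs, tested genes overlapping them and the nearest tested coding gene on each side, the leading genes of each list, and the gene of most like pattern. Some neighbouring genes are not reported here. The alternatives were other pseudocounts and filters, centring, no block, no trend and leaving out each library. The members and lists were chosen with earlier results of these data known.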

Additional observations from a re-analysis of the deposited data

How the results depend on the processing

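Depth limits 2600014E21Rik, whose Spret values were 3 to 15, and 1700007J10Rik, whose B6 values were 32 to 44. It also limits Neat1 and Sox2ot, with at most 191 per allele. Miat, Gas5, 2600014E21Rik and 1700007J10Rik kept direction and call under all 10 alternatives, Snhg11 under 9 and Malat1 under 8, and Rmst was called under none. Malat1 (-0.33) and Snhg11 (-1.47) lost their calls without the replicate block, and Malat1 without the trend (-0.33). Neat1 gained a call at a pseudocount of 5 (-0.37). With 1 library left out, Neat1 ranged from -0.55 to -0.18 and Sox2ot from -0.54 to 0.00. The cause was not tested.

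Counts of calls toward Spret and B6 over all tested genes were 1209 and 3643. They became 189 and 1047 with no filter, 267 and 1270 without the replicate block, and 469 and 1760 without the trend; after centring 2059 were toward Spret, and with 1 library left out they ranged from 581 to 991 and from 2086 to 3010. Without the block 3 of the 9 RNAs were called toward B6. For other named long noncoding RNAs the counts were 6 and 16, or 6 and 12 for autosomal ones. Over the whole list they became 1 and 8 with no filter, 3 and 5 without the block and 2 and 9 without the trend. With 1 library left out, 10 to 16 were toward B6. Each count toward B6 includes the X-linked Ftx, Firre and Cdr1os, which kept their calls under every alternative. For partner proteins the counts were 2 and 8, or 2 and 7 for autosomal genes. Over the whole list they became 0 and 2 with no filter, 5 and 5 after centring, 0 and 3 without the block and 0 and 4 without the trend. With 1 library left out they ranged from 0 to 2 and from 5 to 7. Each count toward B6 includes the X-linked Nono, which kept its call under every alternative. Of 29 other named genes that were called, 7 kept their call and direction under every alternative that tested them.

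As a share of tested autosomal protein-coding values, Malat1 stood at 1.54%, Miat at 0.0580%, Gas5 at 0.0386%, Neat1 at 0.00618% and 1700007J10Rik at 0.00579%, the total being smaller by construction. Some uncalled genes changed sign. After centring, Tpst2 stood at 0.0312, Tmpo at 0.10, Serpinc1 at 0.0645, Hnrnpa3 at 0.046 and Srrm2 at 0.10. With 1 library left out, Frmd8 ranged from -0.17 to 0.38, Gm27357 from -0.35 to 0.0672, Gm27998 from -0.0484 to 0.22, Mn1 from -0.0467 to 0.0729, Tmpo from -0.0402 to 0.0105, Atp11b from -0.12 to 0.17, Serpinc1 from -0.17 to 0.0314, Mtx2 from -0.12 to 0.21 and Srrm2 from -0.0427 to 0.0254.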
